A study of Homo sapiens with 12 samples.

Results

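The 40 genes described here are those of the deposited expression tables that are typed as something other than mRNA, out of 8842 listed genes (0.452%). They were chosen by that type alone, with no filter on level, and 0 of them repeated the symbol of a coding gene. The tables type 25 of them as lncRNA, 14 as pseudo (pseudogene) and 1 as other, and 29 carry only a provisional LOC name. By gene identifier 37 were found in the current RefSeq table, which classes 23 as lncRNA, 12 as transcribed pseudogenes and 2 as pseudogenes, and 18 of them now have another symbol. GENCODE 29, another gene annotation, types C6orf48, TMEM99, C6orf223, CASC10, C8orf44 and ANKRD20A3 as protein coding. They are called non-coding here by their deposited type.

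The values come from RNA-seq of HepG2 and LM3, 2 established human liver cancer cell lines. Each line was transfected with siFASRL, a small interfering RNA against the lncRNA FASRL, or with the control siRNA siNC, and harvested after 48 h, with 3 libraries in each of the 4 groups. The study asks what FASRL does in the lipid metabolism of liver cancer cells. More than 1 siRNA against FASRL was designed, the labels do not say which was used in these libraries, and the labels do not state whether the replicates were separate cultures. The methods state in general that work on the cell lines was repeated, without naming the sequenced libraries. The p-values measure the spread between these samples, which may be technical. The target itself has 0 entries in the tables, under FASRL or its current name NQO1-DT, so the knockdown was not measured here. RNA was captured on oligo(dT) beads, which take up transcripts with a poly(A) tail.

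Long non-coding RNAs are transcripts without a long open reading frame. Some act in the nucleus on chromatin or as scaffolds, and others serve mainly as the transcripts from which small RNAs are cut. Pseudogenes are copies of genes that have lost the ability to make the original protein, and many are still transcribed, so that reads from a recent copy can be hard to assign between copy and parent. In liver cancer, lncRNAs have been studied as regulators of growth, splicing and metabolism.

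HepG2 was checked by its liver genes. In the siNC group, mean values were 815 for ALB (albumin), 605 for AFP (alpha-fetoprotein) and 1393 for SERPINA1 (alpha-1-antitrypsin). LM3 carries the label of a liver cancer line as well, but its siNC means were 0.36 for ALB, 0.29 for AFP, 0.02 for TTR, 0.16 for APOA1, 0.17 for APOB and 1.02 for SERPINA1. Of the 7 hepatocyte markers examined, HNF4A, a transcription factor of hepatocytes, was the one well above 1 in LM3, at 14.3 against 26.2 in HepG2. The means of all 7 were lower with siFASRL in both lines (ALB 235 and AFP 254 in HepG2, HNF4A 6.71 in LM3), and their part in the results on non-coding genes was not tested. Of 4 fibroblast markers 3 are listed. Their means were all lower with siFASRL in LM3, and in HepG2 ACTA2 went the other way. COL1A1 had means of 20.1 with siNC and 15.7 with siFASRL in HepG2, and of 9.95 and 3.01 in LM3. ACTA2 went from 10.8 to 17.4 in HepG2 and from 0.41 to 0.18 in LM3, and PDGFRB from 4.35 to 2.68 and from 4.18 to 2.25. Of the endothelial and leukocyte markers, VWF was at 0.27 or less in every group and CD68 went from 41.1 to 44.9 in HepG2 and from 14.9 to 17.5 in LM3. Their part in the results was not tested either.

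The values are the authors' RSEM expression values, and whether they are FPKM or TPM is not stated. Folds are differences of log2(value + 1), which understate changes of low genes, from limma with Benjamini-Hochberg adjustment over all tested listed genes. A gene entered a test if 3 or more libraries of the fit reached a value of 1, and called means an adjusted p under 0.05. The list holds a subset of genes, and HepG2 effects of listed genes leave a gap. Among genes with a mean of at least 5, 5 of 6367 (0.0785%) had a HepG2 log2 ratio between -0.20 and -0.04, against 578 of 5937 (9.74%) in LM3. Shares of called genes are thus shares of this list, and the HepG2 share may not be independent of how it was made.

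Most of the non-coding genes were low. The median of their means over the 12 libraries was 2.66, against 11.9 for the genes typed mRNA. Means of 10 or more were reached by 7 of 40 (17.5%), against 55.2% of the mRNA genes. Another 18 lay between 1 and 10, and 15 (37.5%) lay under 1, against 9.8% of the mRNA genes. In every one of the 12 libraries 21 genes had a value of at least 1, and 3 had a value of at least 10, namely C6orf48, LOC101929479 and LOC107986794. At the other end, LOC102724904, LOC105374378 and LOC101929599 were listed at 0 in at least 1 library. Of the lncRNAs that the study names, 10 were looked up, such as MALAT1, NEAT1 and HULC, and none is listed (0 of 10).

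**Figure D1:**
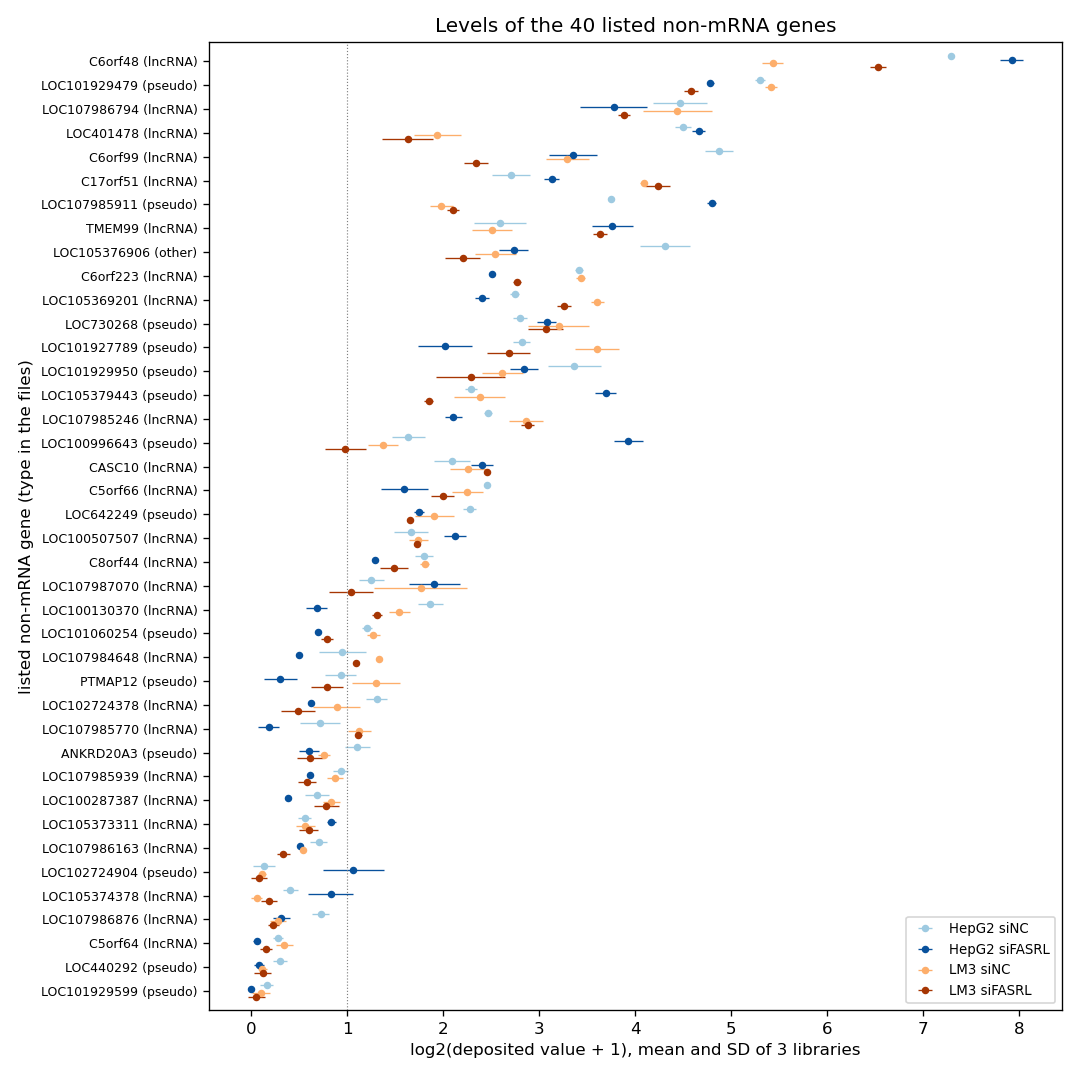
Level of each of the 40 non-coding genes as log2(value + 1), with points for the mean and bars for the SD of the 3 libraries of each group, ordered by the mean over all 12 libraries. C6orf48 is at the top, and the dotted line marks a value of 1.

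The plot of levels shows C6orf48 well apart from the other non-coding genes, at a mean of 133 over the 12 libraries. By this mean, pooled over both lines, the next genes were LOC101929479 (32.4), LOC107986794 (17.3) and LOC401478 (12.7). The order within a line differed. LOC401478 had means of 21.6 with siNC and 24.3 with siFASRL in HepG2 but of 2.86 and 2.12 in LM3. In HepG2, C6orf99 with siNC (28.4) and LOC107985911 with siFASRL (26.8) stood above it. C6orf48 therefore weighs heavily on the summed value of the 40 genes. That sum was 435.9, 455.4 and 449.9 in the 3 HepG2 siFASRL libraries and 383.2, 377.5 and 397.6 in the HepG2 siNC libraries. In LM3 it was 228.3, 243.8 and 233.4 with siFASRL and 244.6, 233.3 and 222.1 with siNC. The groups did not overlap in HepG2 and overlapped in LM3. C6orf48 made up 50.4% to 56.5% of the sum in HepG2 siFASRL and 39.1% to 41.5% in HepG2 siNC. In LM3 siFASRL its share was 37.4% to 40.3%, and in LM3 siNC it was 17.3% to 19.5%. In LM3 siNC replicate 3 LOC101929479 was the larger of the pair, with 19.2%. Without C6orf48 the HepG2 sums were 216.3, 198.0 and 200.3 with siFASRL, all below the 227.6, 221.0 and 241.9 with siNC. In LM3 they were 143.0, 149.2 and 139.4 against 202.2, 187.9 and 183.2. Without C6orf48, every siFASRL sum thus lay below every siNC sum of its line.

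**Figure D2:**
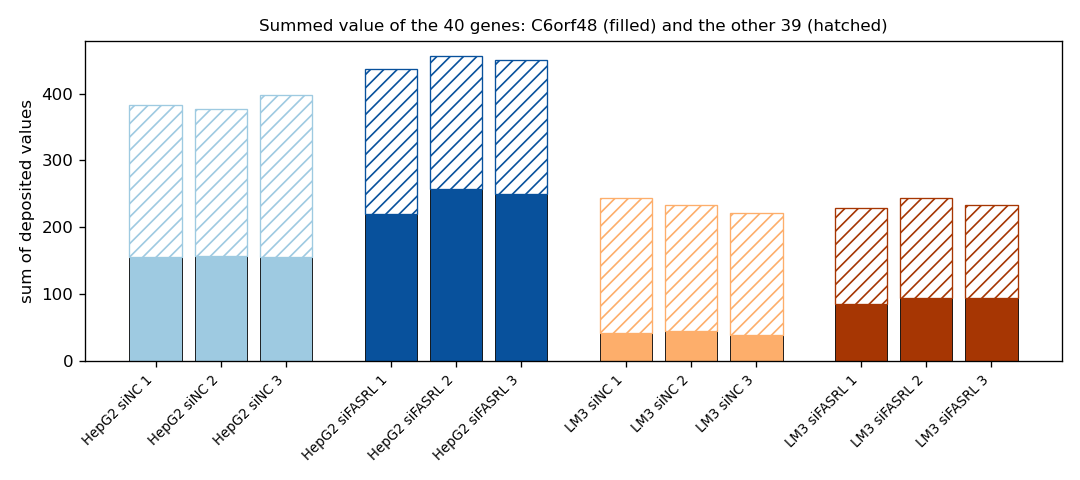
Summed value of the 40 non-coding genes in each of the 12 libraries, with C6orf48 filled and the other genes hatched. C6orf48 takes 50.4% to 56.5% in HepG2 siFASRL and 17.3% to 19.5% in LM3 siNC.

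C6orf48, now SNHG32, is a host gene of small nucleolar RNAs, and the only gene among the 40 that is on a list of 32 such hosts. It spans chr6:31834916-31839761 on the plus strand (GRCh38) and contains SNORD48 (chr6:31835263-31835326) and SNORD52 (chr6:31837076-31837139), box C/D RNAs of the kind that guides 2′-O-methylation. Host transcripts of this kind release the small RNA from an intron, and the spliced remainder is often broken down by nonsense-mediated decay. In HepG2 its values were 219.6, 257.4 and 249.7 with siFASRL and 155.6, 156.5 and 155.6 with siNC. In LM3 they were 85.3, 94.7 and 94.02 with siFASRL and 42.3, 45.4 and 38.95 with siNC. All siFASRL libraries lay above all siNC libraries of their line. The log2 difference by limma was 0.63 (SE 0.0679, adjusted p 1.70e-05) in HepG2 and 1.10 (SE 0.0707, adjusted p 2.85e-06) in LM3. The rise was larger in LM3, with a difference between lines of 0.47 (adjusted p 0.00191). Its control level was lower in LM3 than in HepG2, by a log2 difference of -1.86. Under quantile normalization the LM3 difference was 0.95, just under the study's fold threshold of 1. NEU1, a lysosomal sialidase and the nearest listed coding gene at 17898 bases, fell by 1.19 and 0.67.

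TMEM99 was the other gene that rose in both lines. Its current name is KRT10-AS1, and it lies on the plus strand at chr17:40819145-40836274, overlapping the keratin gene KRT10. HepG2 values were 14.9, 12.1 and 10.96 under siFASRL and 5.95, 3.89 and 5.44 under siNC. LM3 values were 10.9, 12.1 and 11.2 against 5.74, 4.25 and 4.24. The groups did not overlap in either line, and the siNC levels of the lines, with a log2 difference of -0.08, were not called different. The rise by limma was 1.17 (SE 0.138, adjusted p 3.05e-05) in HepG2 and 1.12 (SE 0.0992, adjusted p 1.46e-05) in LM3. Of the 25 genes tested in both lines, TMEM99 alone lay past an absolute log2 difference of 1 in both, at the pseudocount of 1. The share among all genes tested in both was 3.35%. With a pseudocount of 0.5 or 0.1, C6orf99 also lay past 1 in both lines, as a fall. Whether the authors' counting used strand is not stated, so reads of TMEM99 and KRT10 cannot be told apart where they overlap. KRT10 itself went from a mean of 11.7 to 15.6 in HepG2 (log2 difference 0.39) and from 14.98 to 15.8 in LM3, where it was not called.

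**Figure D3:**
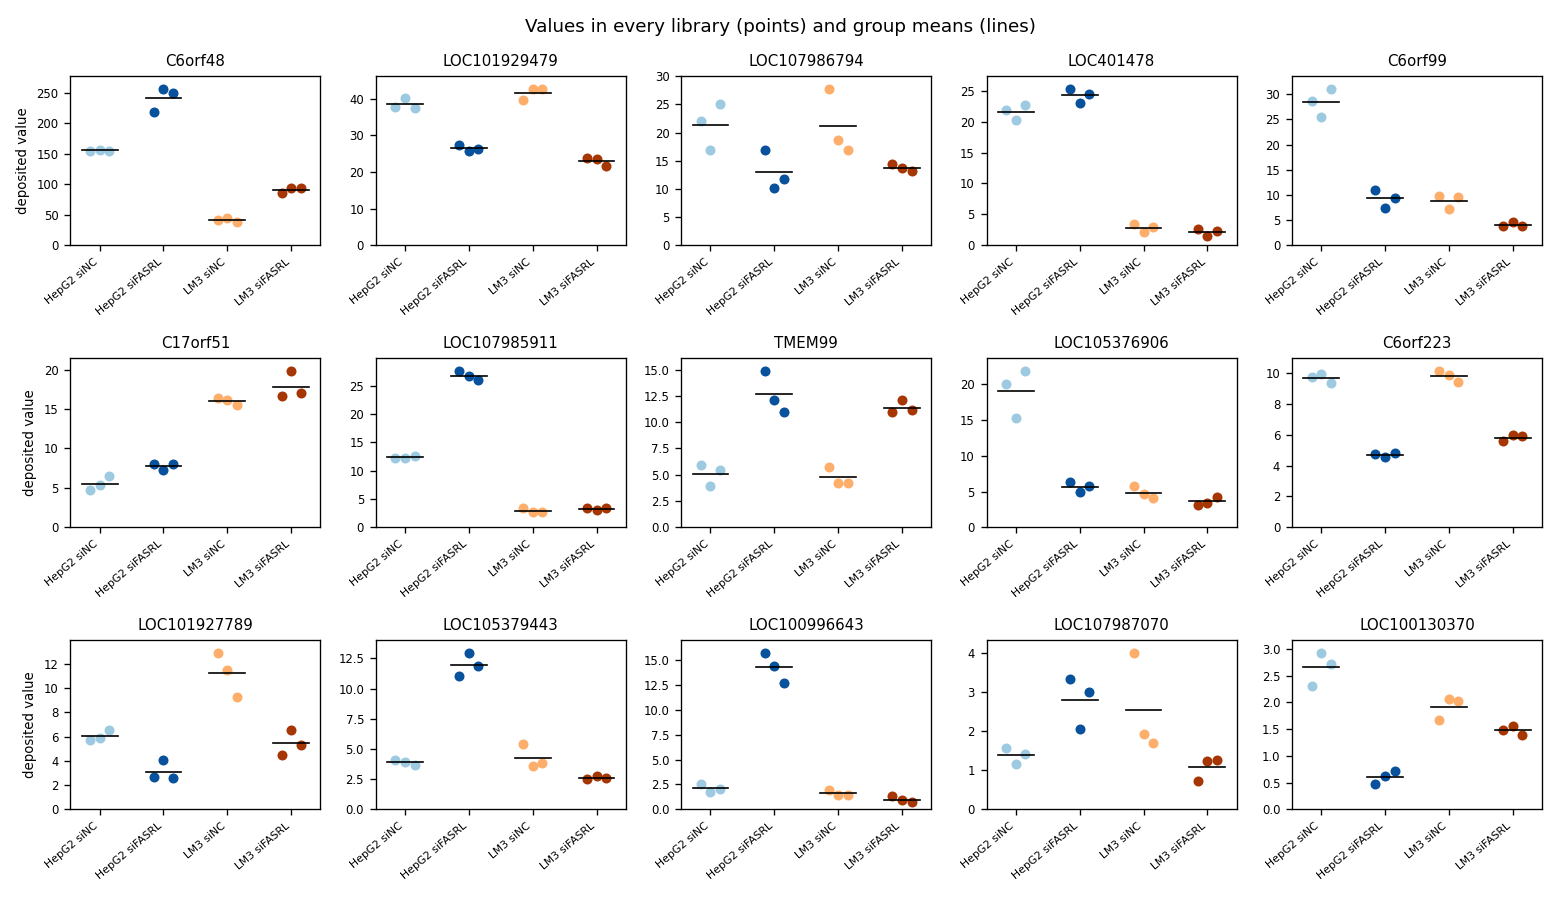
Deposited value in every library (points) and group mean (lines) of the non-coding genes whose values are given in full, each on its own linear axis from 0. TMEM99 and C6orf48 are higher under siFASRL in both lines, and LOC100996643 and LOC105379443 are higher in HepG2 and lower in LM3.

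The genes that fell in both lines are more numerous, 12 of the 25 tested in both, against 36% of all genes tested in both. The number depends on the scaling, since 9 of the 12 were still lower in both lines after median-of-ratios scaling and 5 after quantile normalization. Under the latter, 6 genes were higher in both lines, so the genes that fell were no longer the more numerous. C6orf99, now LINC02901, had the largest fall of the tested lncRNAs in each line at the pseudocount of 1. With a pseudocount of 0.1, LOC100130370 fell more in HepG2 and LOC107987070 fell slightly more in LM3. C6orf99 lies at chr6:158869814-158910353 on the plus strand. Its HepG2 values were 11.02, 7.47 and 9.44 with siFASRL and 28.6, 25.4 and 31.1 with siNC, and the LM3 values were 3.85, 4.58 and 3.77 against 9.83, 7.19 and 9.60. No siFASRL library reached the lowest siNC library of its line. By limma it fell by 1.52 in HepG2 (SE 0.121, adjusted p 2.41e-06) and by 0.95 in LM3 (SE 0.112, adjusted p 7.47e-05). The fall was smaller in LM3 by 0.57 (adjusted p 0.0245), a call lost in 5 of 20 other settings. Those were a pseudocount of 0.1 (adjusted p 0.0803) and leaving out HepG2 siFASRL replicate 2 (0.0584), HepG2 siNC replicate 3 (0.0620), LM3 siFASRL replicate 2 (0.0628) or LM3 siNC replicate 2 (0.0567). The nearest listed coding gene, EZR (the membrane linker ezrin), lies 50446 bases away and rose by 0.69 and 0.52.

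C6orf223, now LINC03040, is a lncRNA at chr6:44000585-44007612. Its HepG2 values were 4.72, 4.53 and 4.80 with siFASRL and 9.72, 9.90 and 9.36 with siNC, and its LM3 values were 5.58, 5.95 and 5.89 against 10.2, 9.83 and 9.44. The replicates lay close together and the groups were well apart. Control levels of the lines differed by 0.02, which was not called. It fell by 0.91 (adjusted p 4.25e-07 by limma) in HepG2 and by 0.67 (adjusted p 6.99e-06) in LM3. The LM3 value was -0.44 under quantile normalization and still called (adjusted p 9.49e-05).

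LOC107986794 is a short lncRNA at chr7:51392378-51393256 on the minus strand, among the best expressed of the 40. Its HepG2 values were 16.9, 10.2 and 11.7 with siFASRL and 22.1, 16.8 and 25.1 with siNC, so the groups overlapped through siFASRL replicate 1. The LM3 values were 14.5, 13.7 and 13.1 against 27.8, 18.6 and 17, without overlap. It fell by 0.69 (SE 0.177, adjusted p 0.00438 by limma) and by 0.55 (SE 0.154, adjusted p 0.00976). The LM3 fall is smaller without siNC replicate 1, which at 27.8 stood apart from 18.6 and 17.

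The promoters of genes that fell together can be read for shared short motifs. RefSeq windows (GRCh38) from 250 bases before to 50 bases after the start were on hand for 18 of the 40 genes, and 6 of these are among the genes that fell in both lines. The CCAAT box was in 3 of those 6 windows, in 6 of the 18, and in 35.7% of all 27305 windows. Stretches of 30 bases from these 3 windows are given to show how differently the motif is placed, on the gene's strand and with the motif in capitals (ATTGG is CCAAT on the other strand). The last stretch, from the LOC107986794 window, carries the AP-1 motif in capitals.
C6orf99, chr6:158869741-158869770, plus strand, CCAAT box 61 bases before the start: gcccgctcccggCCAATcagggcgcgcgac
C6orf223, chr6:44000335-44000364, plus strand, CCAAT box 244 bases before the start: cctcacCCAATgggatagggtgacatgggg
LOC107986794, chr7:51393427-51393456, minus strand, CCAAT box 188 bases before the start: ttatgcttcctgATTGGactctgactaata
LOC107986794, chr7:51393274-51393303, minus strand, AP-1 motif 36 bases before the start: tgacctcacaaTGACTCAagctaccactta
The AP-1 motif (TGANTCA) was in 3 of the 18 windows and in 7.76% of all windows. The E-box CACGTG was in 1 of the 18, that of C5orf66, against 7.43%. The GC box (GGGCGG) was in 9 of the 18 and in 44.6% of all windows. Among the 6 windows of genes that fell in both lines, the GC box was also in 3. The AP-1 motif and the E-box were in 1 of these each. Over the 7111 windows of listed genes, the shares were 4.85% for AP-1, 9.79% for the E-box, 36.1% for the CCAAT box and 69.2% for the GC box. All motifs were searched on both strands, none contains another, and a match describes the sequence only.

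Among the pseudogenes that fell in both lines, the one with the highest level was LOC101929479, at chr15:85205007-85234795. Its HepG2 values were 27.2, 25.8 and 26.4 with siFASRL and 37.6, 40.2 and 37.5 with siNC. Its LM3 values were 23.7, 23.6 and 21.5 against 39.5, 42.6 and 42.8. The groups were well apart in both lines, and the siNC levels of the lines were not called different (0.11). The log2 difference by limma was -0.52 (adjusted p 1.67e-05) in HepG2 and -0.83 (adjusted p 4.65e-06) in LM3, with a difference between lines of -0.31 (adjusted p 0.00509). LOC101927789, now FAUP4 and named as a pseudogene of the ribosomal and ubiquitin-like gene FAU, stood at 2.65, 4.06 and 2.60 against 5.71, 5.86 and 6.57 in HepG2. In LM3 it stood at 4.50, 6.55 and 5.33 against 12.9, 11.5 and 9.24. It fell by 0.80 and 0.92, with adjusted p 1.72e-04 and 2.99e-04 by limma, and its groups did not overlap. FRMD8, the nearest listed coding gene at 41761 bases, fell by 1.06 and 0.60 as well.

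A further pair of genes fell far more in HepG2 than in LM3. LOC105376906, the gene typed other, is on chromosome 19 in the tables. Its HepG2 values were 6.30, 4.94 and 5.79 with siFASRL and 20.1, 15.2 and 21.9 with siNC, and it fell by 1.58 (adjusted p 2.22e-06 by limma). In LM3 the values 3.12, 3.45 and 4.30 overlapped with 5.81, 4.69 and 4.09, and the fall of 0.34 (adjusted p 0.0299) was lost in 6 of 15 other settings. Among them were leaving out LM3 siFASRL replicate 1 (adjusted p 0.114), siFASRL replicate 2 (0.0826) or siNC replicate 1 (0.0573), and quantile normalization, with a value of -0.0351. LOC100130370, now LINC03048, stood at 0.47, 0.63 and 0.71 against 2.31, 2.93 and 2.72 in HepG2 and at 1.49, 1.56 and 1.39 against 1.67, 2.07 and 2.02 in LM3. It fell by 1.19 in HepG2 and by 0.23 in LM3 (adjusted p 9.32e-07 and 0.0108 by limma). The LM3 value turned to 0.15 under quantile normalization and was called there as a rise (adjusted p 0.0452). The differences between lines were 1.24 and 0.95, both called. BAHCC1, 10075 bases from LOC100130370, fell by 0.98 and 0.61.

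**Figure D4:**
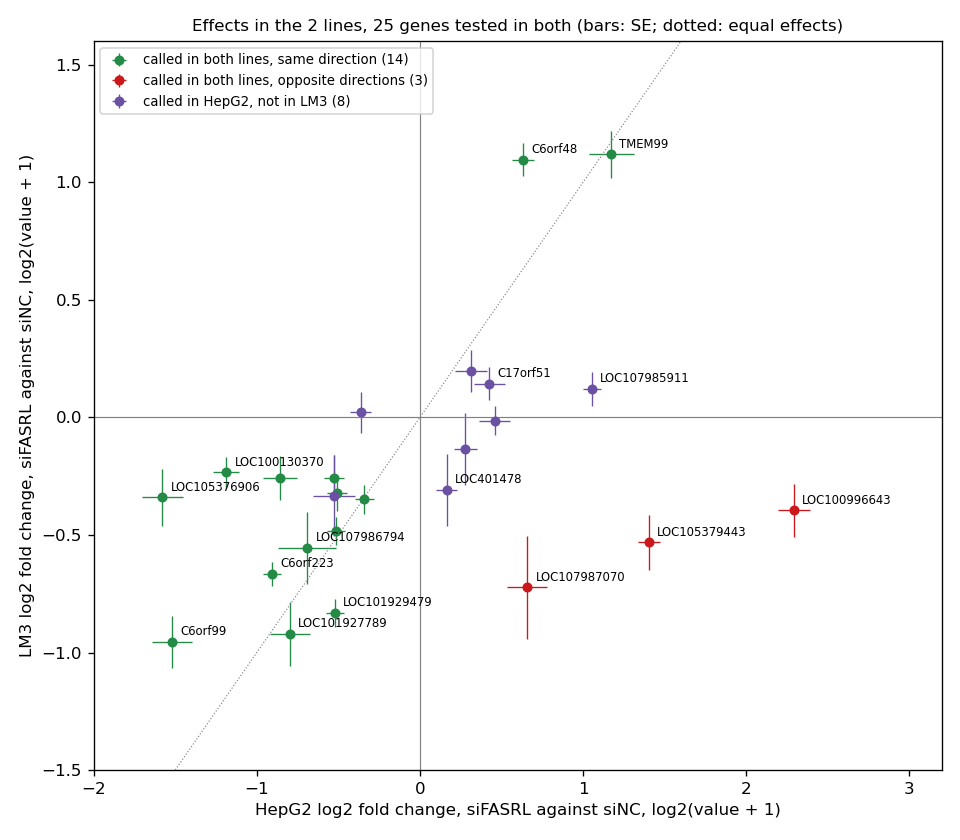
Log2 difference of siFASRL against siNC for the 25 genes tested in both lines, HepG2 on the horizontal and LM3 on the vertical axis, with standard errors as bars and equal effects on the dotted line. TMEM99 lies past 1 in both lines, and LOC100996643 lies at 2.29 in HepG2 and -0.40 in LM3.

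Of the genes tested in both lines, 3 changed in opposite directions, higher in HepG2 and lower in LM3, where 5.31% of all genes tested in both were opposite. None of the 3 was called in both lines after quantile normalization. All are on chromosome 9, which holds 6 of the 40 genes, a grouping noticed after the values were seen. The pseudogene LOC100996643, at chr9:63333338-63378847, had HepG2 values of 15.8, 14.4 and 12.7 with siFASRL and 2.52, 1.77 and 2.08 with siNC. In LM3 it had 1.31, 0.91 and 0.73 against 1.93, 1.42 and 1.45. The HepG2 groups were far apart, with a rise of 2.29 (SE 0.0995, adjusted p 8.20e-08 by limma). The LM3 fall of 0.40 (adjusted p 0.0118) was -0.00 (adjusted p 0.99) under quantile normalization and had an adjusted p of 0.0505 without LM3 siFASRL replicate 3. The difference between lines was -2.69 (SE 0.168, adjusted p 6.99e-08). The gene overlaps the pseudogenes AQP7P1 and BMS1P10. A transcript of BMS1P10 matches the coding gene BMS1, a factor of ribosome assembly, at 96.01% identity, and the sequence of LOC100996643 itself was not searched. Its reads may be shared with these genes, so its values are uncertain. BMS1 itself rose by 0.97 in HepG2 (mean 17.9 to 36.2) and by 0.80 in LM3 (31.1 to 54.4).

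LOC105379443, a pseudogene at chr9:65143058-65185164, had HepG2 values of 11.01, 12.98 and 11.8 with siFASRL against 4.06, 3.95 and 3.65 with siNC. Its LM3 values were 2.49, 2.72 and 2.60 against 5.42, 3.56 and 3.82. The groups were apart in both lines, and the siNC levels were not called different (0.09). It rose by 1.40 in HepG2 (adjusted p 1.60e-07 by limma) and fell by 0.53 in LM3 (adjusted p 0.00292), the latter being -0.17 with adjusted p 0.218 under quantile normalization. The lncRNA LOC107987070, placed on chromosome 9 by the tables, stood at 3.32, 2.05 and 2.99 against 1.57, 1.15 and 1.42 in HepG2 and at 0.71, 1.24 and 1.27 against 4, 1.91 and 1.69 in LM3. It rose by 0.66 and fell by 0.72 (adjusted p 6.08e-04 and 0.0151 by limma). The HepG2 rise was 1.04 under quantile normalization (adjusted p 9.05e-05). The LM3 fall is smaller without siNC replicate 1, which at 4 stood apart from 1.91 and 1.69. The LM3 call was lost under quantile normalization and, with an adjusted p of 0.0628, without LM3 siFASRL replicate 1. The differences between lines were -1.93 and -1.38.

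A further pseudogene of chromosome 9, LOC102724904, was too low to be tested. Its HepG2 values were 0.73, 1.66 and 0.97 with siFASRL and 0, 0.15 and 0.15 with siNC, so that the groups did not overlap. In LM3 the groups overlapped, at 0.05, 0 and 0.12 against 0.11, 0.07 and 0.05. ANKRD20A3 and PTMAP12, pseudogenes also on chromosome 9, went the other way in HepG2. ANKRD20A3 fell there by 0.51 (adjusted p 2.07e-04 by limma), a call lost under quantile normalization (-0.16, adjusted p 0.0557). PTMAP12, not tested there, went from a mean of 0.91 with siNC to 0.24 with siFASRL. Their differences between lines were 0.36 and 0.12, the latter not called.

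Some genes changed in HepG2 and were not called in LM3. LOC107985911, a pseudogene at chr2:89542839-89585665, stood at 27.7, 26.7 and 25.99 against 12.3, 12.2 and 12.7 in HepG2 and at 3.37, 3.08 and 3.44 against 3.35, 2.73 and 2.79 in LM3. It rose by 1.05 in HepG2 (SE 0.0539, adjusted p 1.86e-07 by limma), while the LM3 difference of 0.12 had an adjusted p of 0.149. In LM3 it was called after median-of-ratios scaling (0.20, adjusted p 0.0320), after quantile normalization (0.41, adjusted p 5.82e-04) and without siNC replicate 1 (0.19, adjusted p 0.00672). The difference between lines, -0.93, was called. A stretch of 215 bases matches LSP1 at 97.67% identity, so its values are uncertain. LSP1 was higher with siFASRL in HepG2 (mean 3.38 against 2.62, log2 difference 0.27, adjusted p 0.0346) and was at means of 0.01 and 0 in LM3. C17orf51, now LINC02693, rose by 0.43 in HepG2 (8.07, 7.21 and 8 against 4.77, 5.35 and 6.54). In LM3 its values were 16.7, 19.9 and 16.97 against 16.4, 16.1 and 15.5, without overlap, and the difference of 0.14 was not called (adjusted p 0.0932). It was called after median-of-ratios scaling (0.24, adjusted p 0.0134) and quantile normalization (0.21, adjusted p 0.0167). LOC401478 was at 25.4, 23.03 and 24.5 against 21.8, 20.2 and 22.7 in HepG2, a rise of 0.16 (adjusted p 0.0335) that was lost in 6 of 15 other settings. These included leaving out HepG2 siFASRL replicate 1 (adjusted p 0.0914) or 3 (0.0891), or siNC replicate 1 (0.0631) or 2 (0.0969). It was far lower in LM3, at 2.60, 1.52 and 2.25 against 3.41, 2.17 and 3.01, with a difference of -0.31 that was not called (adjusted p 0.0913) and turned to 0.0693 (adjusted p 0.648) under quantile normalization. It was called there with the replicate number as a block (adjusted p 0.00199), in the fit of all 12 libraries (0.0406), and without LM3 siFASRL replicate 1 (0.0475) or siNC replicate 2 (0.0183).

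Other genes carry names that tie them to a neighbour. C5orf66, now PITX1-AS1, overlaps PITX1 and MACROH2A1 and fell by 0.86 in HepG2 and 0.26 in LM3, while PITX1, a homeobox factor, rose by 0.57 and 0.75. The LM3 fall of C5orf66 turned to 0.0768 under quantile normalization, and its call was lost without LM3 siFASRL replicate 1 (adjusted p 0.113) or 2 (0.0902), or siNC replicate 1 (0.0554) or 2 (0.0528). LOC107985246, now CSRP1-AS1, fell by 0.36 in HepG2 and had 0.02 in LM3, where it was not called, and CSRP1 rose by 0.27 and 0.33. Under quantile normalization its HepG2 value was -0.15 (adjusted p 0.0729), no longer called, and its LM3 value was 0.21 and called (adjusted p 0.0468). CASC10, the host gene of the microRNA MIR1915, rose by 0.31 in HepG2 with overlapping groups and was not called in LM3 (0.20, adjusted p 0.0687 by limma). The HepG2 call was lost without siNC replicate 1 (adjusted p 0.0502), while the HepG2 rise was 0.70 under quantile normalization (adjusted p 0.00034). LM3 was called without siNC replicate 2 (0.29, adjusted p 0.00802), after median-of-ratios scaling (0.28, adjusted p 0.0166) and after quantile normalization (0.43, adjusted p 0.00144). The microRNA was not measured here. LOC107985770, now SMANTIS, lies inside ANXA4 and was not called in LM3 (-0.01), but had 0.33 and a call there under quantile normalization (adjusted p 9.48e-04). Of the 36 genes placed on a chromosome by RefSeq, 8 overlap a coding gene by their start and end positions. Exons were not compared, and where exons overlap, reads cannot be told apart without strand.

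Near-identical coding copies, with at least 200 aligned bases at 95% identity, were found at another place for 7 of the 24 genes that could be matched by position to a GENCODE gene, whose transcripts were searched. Their values are uncertain for the same reason. Beside LOC107985911 and the match of LOC100996643 through BMS1P10 these include LOC730268, now ANAPC1P4, with 97.72% identity to ANAPC1. It rose by 0.28 in HepG2 and had -0.14, not called, in LM3, while ANAPC1 had 0.09, not called, and rose by 0.45. The HepG2 call was lost in the fit of all 12 libraries (adjusted p 0.0602), and LM3 was called without siNC replicate 1 (-0.32, adjusted p 0.00835) and turned to 0.0529 (adjusted p 0.749) under quantile normalization. LOC101929950 matches NPEPPS at 99.48%. C8orf44 is no such copy, since it lies inside the readthrough gene C8orf44-SGK3 and shares sequence with SGK3 by position. C8orf44 fell by 0.51 and 0.32, and SGK3 fell by 0.67 and 0.64. Under quantile normalization C8orf44 had -0.17 in HepG2 (adjusted p 0.0346) and 0.0807 in LM3, not called (adjusted p 0.311). The remaining pairs are ANKRD20A3 with its ANKRD20A relatives, LOC440292 with COMMD4 and PTMAP12 with PTMA.

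Counted over the lines, 27 of the 40 genes passed the low-value filter in HepG2 and 28 in LM3. All 27 were called in HepG2, against 89.1% of all genes tested there. Of these, 11 were higher, against 44.8%, and 16 lower, against 44.3%. Past an absolute log2 difference of 1 lay 7, against 10.4%, of which 4 were higher (3.61%) and 3 lower (6.79%). In LM3, 19 of 28 were called, against 77.4%, with 2 higher (33.9%) and 17 lower (43.5%). The 2 that were higher, C6orf48 and TMEM99, also lay past a log2 difference of 1 (7.62% in either direction, 1.42% higher). The median difference of the tested non-coding genes was -0.51 in HepG2, against 0.10 over all tested genes, and -0.32 in LM3, against -0.06. These counts depend on the scaling in LM3: 5 were higher and 14 lower after median-of-ratios scaling, 10 and 6 after quantile normalization, which moved their median to 0.06. In LM3 the share of called genes that were higher was 43.8% over all genes, 51.8% after median-of-ratios scaling and 51.9% after quantile normalization. In HepG2 quantile normalization left 10 higher and 13 lower, with a median of -0.15. The filter matters too: LOC100130370, LOC102724378, LOC101060254 and ANKRD20A3 reached 1 in HepG2 only with siNC, so they could count only as lower there. In LM3 the same held for LOC101060254 and PTMAP12. With a value of at least 1 required in all libraries of the line, 11 of 23 were higher and 12 lower in HepG2 (median -0.34). In LM3, 2 of 23 were then higher and 13 lower (median -0.26).

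Without any filter, the siFASRL and siNC groups did not overlap for 38 of 40 genes in HepG2, against 90.1% of all listed genes, and for 22 of 40 in LM3, against 73.8%. The genes with overlap in HepG2 were CASC10 and LOC107986794. The 10 genes tested in neither line had a highest library value of 1.66.

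Between the lines, 14 of the 25 genes tested in both were called in the same direction, against 65.6% of all genes, with 2 higher (29.6%) and 12 lower. After median-of-ratios scaling 5 were higher and 9 lower in both lines, and after quantile normalization 6 and 5. With a value of at least 1 required in all libraries, 2 were higher and 10 lower. Called in HepG2 and not in LM3, through the test or the filter, were 10 of the 40 (25%), against 23.1% of all listed genes, and in LM3 but not in HepG2, 2 (5%), against 6.54%. Across the 25 genes the effects correlated with r 0.433 (Spearman 0.417), and 18 (72%) had the same sign, while over all 7349 genes tested in both r was 0.794 (Spearman 0.797), with 83.8% of the same sign. Genes are not independent replicates, so these values describe the lists. The difference between lines was itself called for 16 of the 30 genes tested over all 12 libraries, against 46.7%, with LM3 higher for 9 (19.5%) and lower for 7 (27.2%).

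**Figure D5:**
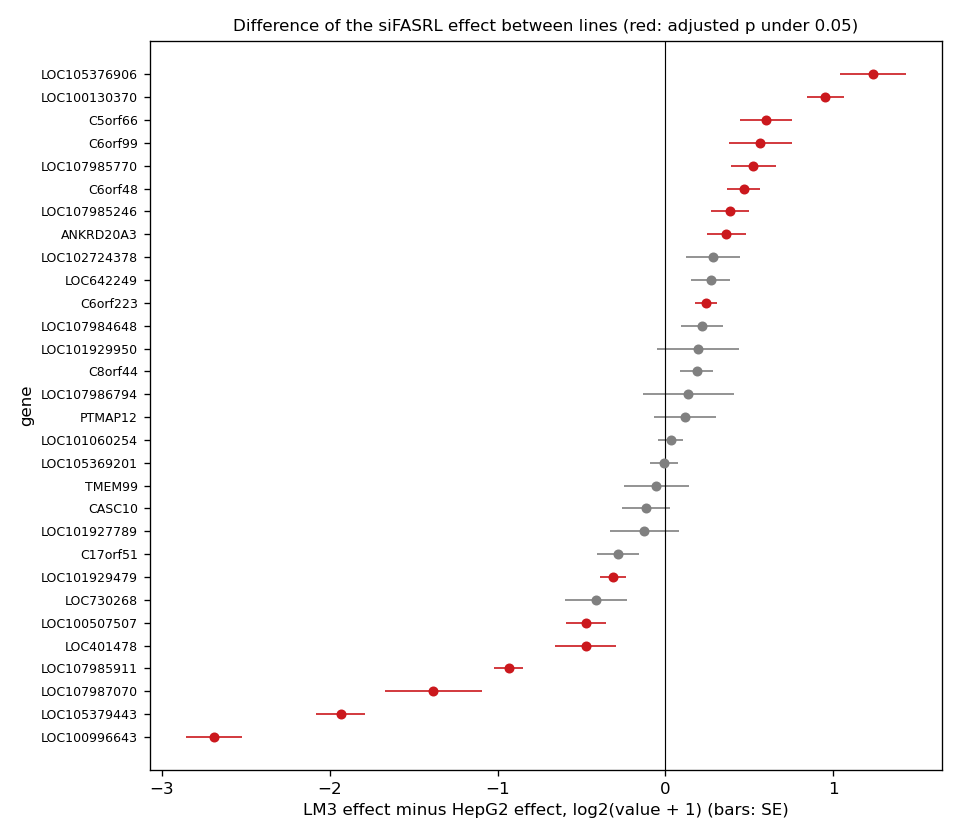
LM3 effect minus HepG2 effect, log2, for each of the 30 non-coding genes tested over all 12 libraries, with standard errors as bars and called genes in red. Values run from -2.69 for LOC100996643 to 1.24 for LOC105376906.

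The plot of line differences is led on its low side by the chromosome 9 genes that changed in opposite directions. Without knockdown, levels of the non-coding genes also differed between lines: 19 of 30 were called between the siNC groups, against 83.6% of all genes, 9 higher in LM3 (41.5%) and 10 lower (42.1%). LOC401478 stood furthest apart, with a log2 difference of -2.56, followed by C6orf48 (-1.86), LOC105376906 (-1.77), LOC107985911 (-1.76) and C6orf99 (-1.58). C17orf51 had the largest difference in favour of LM3 (1.38).

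Coding genes that handle non-coding RNAs were taken from lists. Their counts stand beside shares over all tested genes of 44.8% higher and 44.3% lower in HepG2 and of 33.9% and 43.5% in LM3. Small nucleolar ribonucleoproteins are of the box C/D kind, which carries the RNAs of C6orf48, and the H/ACA kind. Of their 17 listed genes, 14 rose and 1 fell in HepG2, and 13 rose and 1 fell in LM3. They include DKC1, the pseudouridine synthase of H/ACA particles, with log2 differences of 1.30 and 1.32, and NOP56, a core protein of box C/D particles, with 0.94 and 1.09. Of 12 genes for nonsense-mediated decay, 10 rose in HepG2 and 11 in LM3, among them RNPS1 (0.82 and 0.55) and MAGOH (0.71 and 0.56), both proteins of the exon junction complex. The nuclear exosome, which trims and degrades RNA, had 17 genes, of which 13 rose and 2 fell in HepG2 and 14 rose and 2 fell in LM3. EXOSC3, one of its core subunits, rose by 0.78 and 0.57. Of 13 paraspeckle genes, 9 rose and 1 fell in HepG2 and 7 rose and 1 fell in LM3, such as SFPQ (0.49 and 0.24). Of 7 genes for microRNA processing, 5 rose and 2 fell in HepG2 and 3 rose and 2 fell in LM3. AGO4, an Argonaute protein, fell by 0.53 and 0.56. After quantile normalization the paraspeckle counts were 6 rising and 1 falling in HepG2 and 4 rising in LM3, and no list turned its majority under either scaling.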

How the data were processed

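RNA-seq of 12 libraries was used, 3 replicates of siFASRL and siNC in HepG2 and in LM3, grouped by the labels. Per the methods of the study, the authors filtered reads with SOAPnuke, mapped them with HISAT2, used Bowtie2 for alignment against a reference set of coding genes, and estimated expression with RSEM. The deposited values are other than counts: they are the authors' RSEM expression values with 2 decimals, and FPKM or TPM is not stated. The labels name hg19, while the chromosome names in the tables are those of GRCh38, so positions were taken by gene identifier from the RefSeq GRCh38 table. Columns that repeat the LM3 values in another table (6) were not used. Depth per library is unknown, so no counting error is given.

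The design foresaw this unit: limma (3.58.1, in R 4.3.3) was run on log2(value + 1) within each line, on genes that reached a value of 1 in 3 or more libraries, with Benjamini-Hochberg adjustment over all tested genes. The difference between lines was an interaction in a fit of all 12 libraries. The fits were tested on simulated data. For the 24 genes matched to a GENCODE 29 gene, coding copies were searched with BLAST+ (2.17.0), and Python (3.11.15), pandas (2.3.3) and matplotlib (3.10.9) were used.

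Values in every library are given for the 8 highest genes, the 8 with the largest mean change in the same direction, those past a log2 difference of 1, those with opposite calls and the 3 largest differences between lines. Genes outside this rule, such as LOC102724904, were picked with their values in view. The genes and lists were chosen with earlier results of these data known. Alternatives were the pseudocount, the filter, the scaling, the replicate block, the variance trend, a fit of all libraries, and leaving out each replicate. The sequences of the promoters are from RefSeq.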

Additional observations from a re-analysis of the deposited data

Results flagged for a closer look

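The siFASRL effect differed between the lines for 16 of the 30 non-coding genes tested (53.3%), by the interaction in the limma fit of all 12 libraries with an adjusted p under 0.05. Over all tested genes the share was 46.7%, so the share among the non-coding genes is near that of the list. Each value is the LM3 effect minus the HepG2 effect on the log2 scale.

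The values furthest below 0 were -2.69 for LOC100996643, -1.93 for LOC105379443 and -1.38 for LOC107987070, the genes with opposite directions in the lines. LOC107985911 followed at -0.93, having risen in HepG2 and not been called in LM3. LOC100507507 had -0.47 and likewise was called in HepG2 only, though LM3 was called at 0.32 under quantile normalization (adjusted p 5.47e-04). LOC401478 had -0.47, a call lost in 15 of 20 other settings. LOC101929479 had -0.31, since it fell more in LM3.

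The values above 0 belong mostly to genes that fell less in LM3 than in HepG2. They were 1.24 for LOC105376906, 0.95 for LOC100130370, 0.60 for C5orf66, 0.57 for C6orf99 and 0.24 for C6orf223. LOC107985770 had 0.52 and ANKRD20A3 had 0.36, and each was tested in 1 line on its own. LOC107985770 lay under 1 in every HepG2 library, with means of 0.65 with siNC and 0.13 with siFASRL. ANKRD20A3 lay under 1 in every LM3 library, with means of 0.69 and 0.53. The call of ANKRD20A3 was lost without HepG2 siFASRL replicate 2 (adjusted p 0.0538) or LM3 siFASRL replicate 1 (0.0569). That of C6orf99 was lost in 5 of 20 other settings. LOC107985246 had 0.38, having fallen in HepG2 and not been called in LM3. C6orf48 had 0.47, its rise being larger in LM3.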

How the results depend on the processing

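The counts of called genes were 27 in HepG2, 19 in LM3 and 14 in both lines in the same direction, and stayed within 1.5 times of these under every alternative run. The last total hides an exchange of directions: 2 higher and 12 lower became 5 and 9 after median-of-ratios scaling and 6 and 5 after quantile normalization. With a pseudocount of 0.1, 11 genes lay past the fold threshold in HepG2 and 5 in LM3, against 7 and 2. With a value of at least 1 required in all libraries, 10 genes differed in effect between lines and 12 between the siNC groups, against 16 and 19, fewer genes being tested. Quantile normalization left 1 gene past the fold threshold in LM3 (TMEM99). It also reversed LM3 values to 0.0807 for C8orf44, 0.32 for LOC100507507, 0.14 for LOC107984648, 0.0768 for C5orf66, 0.12 for LOC642249, 0.15 for LOC100130370 and 0.33 for LOC107985770, each called in at least 1 of the fits. LOC401478 (0.0693) and LOC730268 (0.0529), not called in either, turned sign as well, and the cause was not tested.

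Leaving out each replicate gave 21 to 27 called genes in HepG2, 16 to 18 in LM3 and 11 to 14 in both in the same direction. It gave 6 to 7 past the fold threshold in HepG2, 2 to 4 in LM3 (4 without LM3 siFASRL replicate 2), 13 to 17 with a difference in effect and 17 to 21 between the siNC groups. Part of the range comes from the filter. Without any given HepG2 siNC replicate, 23 genes were tested in HepG2, against 27, and 12 were called lower, against 16. Without any given LM3 siNC replicate, 26 were tested in LM3, against 28. With the replicate block, 27 genes were called in HepG2, 19 in LM3, 13 in both in the same direction, 7 and 2 past the fold threshold, 16 with a difference in effect and 14 between the siNC groups. C5orf66 (adjusted p 0.0537 in LM3) and LOC105376906 (0.0508) lost their calls under it, and LOC401478 (0.00199) and LOC101929950 (0.00521) gained calls in LM3, so the count of 19 covers an exchange of genes. Deviations of libraries with the same number correlated by 0.378, 0.436 and -0.26 in HepG2 and by -0.093, 0.13 and -0.205 in LM3. The signs differed within each line, so these values cannot decide whether the numbers pair the samples.

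The depth is unknown, and the 10 genes tested in neither line carry no test. Fold changes of low genes are understated by the pseudocount of 1.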

Other observations

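Among the genes typed mRNA in the tables, 53 are non-coding in the current RefSeq table: 26 lncRNAs, 17 transcribed pseudogenes and 10 pseudogenes. They are not among the 40 genes described here, so the type in the tables does not cover every listed non-coding gene.

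The 40 genes are spread over the chromosomes unevenly, with 6 on chromosome 2 and 6 on chromosome 9, and LOC642249 is on a scaffold without a chromosome. LOC105374378 was too low for the test in both lines, at a mean under 1, and its siFASRL libraries lay above its siNC libraries in each line. LOC101929599 was listed at 0 in all HepG2 siFASRL libraries.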
